A study of Mus musculus with 67 samples.

Results

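The elements described here are the accessible chromatin elements whose nearest annotated gene was Rfx1, Rfx2, Rfx3, Rfx4, Rfx5, Rfx7 or Foxj1, that is, a group of ciliary and immune transcription factor genes. They were taken by the gene name that the authors' annotation gave each element, and no measured value entered the choice. The annotation assigned 86 of its 133549 elements to these genes, and 70 of those were among the 111638 elements with accessibility values. Rfx3 held 34 of the 70, Rfx4 held 15, Foxj1 held 7, Rfx2 held 6, Rfx5 held 4, and Rfx1 and Rfx7 held 2 each. An element is named below by its gene and its distance in bp to the start site used in the annotation, with a minus sign for upstream positions, so that Foxj1 -23264 lies 23264 bp upstream of Foxj1. The nearest start site does not make a gene the target of an element. The elements from Rfx3 -325905 to Rfx3 -266089 lay in introns of Glis3, those from Foxj1 -32928 to Foxj1 -19312 lay in Rnf157, and Rfx5 -10190 lay in an exon of Selenbp1.

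Mouse ES cells of the line HM1 were differentiated to ventral spinal cord progenitors, and accessibility was measured by CaTS-ATAC, an ATAC-seq method on fixed cells that were sorted by intracellular staining for transcription factors. Neuromesodermal progenitors (NMPs), the common progenitors of spinal cord and trunk mesoderm, were collected at day 3 without SAG, the smoothened agonist that stands in for Shh. Neural progenitors (NPs) were collected at days 4, 5 and 6 as p0-1 cells at 0 or 10 nM SAG, p2 cells at 10 or 100 nM, and pMN and p3 cells at 100 or 500 nM. The NP gates took cells with SOX2, a progenitor factor that is lost in neurons, and then PAX6 without NKX6.1 for p0-1, PAX6 with NKX6.1 for p2, OLIG2 without NKX2.2 for pMN, and NKX2.2 without OLIG2 for p3. All groups came from the 1 ES cell line, with no genetic change named in the labels. The 67 samples formed 25 conditions, of which 17 had 3 replicates and 8 had 2. Cell type and SAG dose were partly tied, since p0-1 shared no dose with pMN or p3, so that type and dose cannot be told apart there. Unless a dose is named, the doses of a cell type and day are pooled below. At day 6 the pMN and p3 groups held 4 samples each, from replicate numbers 2 and 3.

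RFX proteins are winged-helix factors that bind the X-box, a DNA element found before many genes for cilia. RFX1, RFX2 and RFX3 act on genes for ciliary assembly, RFX4 acts in the neural tube and its cilia, RFX5 is a subunit of the complex that turns on MHC class II genes, and RFX7 is a more distant relative. FOXJ1 is a forkhead factor that directs the programme of motile cilia and is active in the floor plate, the strip of midline cells ventral to p3. Ventral NPs carry a primary cilium, through which Shh is sensed.

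A set of 5 elements, picked to show the different patterns described below, is given by the central 300 bases of each, read from the plus strand of GRCm38.p6 (mm10). Foxj1 -23264 (chr11:116358469-116358768, intron 8 of Rnf157, with part of a coding exon) was low in p3. Rfx3 +106388 (chr19:27904629-27904928, intron 1 of Rfx3) fell in p3, and Rfx3 -154956 (chr19:28165973-28166272, intergenic) rose in p3. Rfx3 -54247 (chr19:28065264-28065563, intergenic) was highest in p3 at day 4, and Rfx3 -317502 (chr19:28328519-28328818, intron 6 of Glis3) opened in NPs of every type. Capitals mark matches, on either strand, to the letters TGTTTA (a forkhead core), ACAAAG (a SOX motif), TAATTA (a homeodomain motif) or CAGATG (an E-box).
Foxj1 -23264: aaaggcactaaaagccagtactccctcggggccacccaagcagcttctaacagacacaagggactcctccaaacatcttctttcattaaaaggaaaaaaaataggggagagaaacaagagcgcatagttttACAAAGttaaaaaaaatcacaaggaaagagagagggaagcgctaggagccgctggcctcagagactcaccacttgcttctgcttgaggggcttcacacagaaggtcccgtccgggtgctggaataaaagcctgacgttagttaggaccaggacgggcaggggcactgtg
Rfx3 +106388: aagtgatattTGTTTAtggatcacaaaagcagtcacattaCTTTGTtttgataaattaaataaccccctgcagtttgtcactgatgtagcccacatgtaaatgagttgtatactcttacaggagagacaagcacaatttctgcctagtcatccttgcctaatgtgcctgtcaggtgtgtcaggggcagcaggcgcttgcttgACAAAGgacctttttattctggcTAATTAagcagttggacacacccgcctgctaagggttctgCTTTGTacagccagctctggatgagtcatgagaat
Rfx3 -154956: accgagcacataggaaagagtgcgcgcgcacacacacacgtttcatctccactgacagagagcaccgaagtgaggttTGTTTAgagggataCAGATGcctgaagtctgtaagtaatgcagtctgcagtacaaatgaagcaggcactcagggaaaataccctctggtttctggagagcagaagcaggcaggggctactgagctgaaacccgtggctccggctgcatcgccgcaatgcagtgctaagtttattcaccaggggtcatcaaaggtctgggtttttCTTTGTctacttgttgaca
Rfx3 -54247: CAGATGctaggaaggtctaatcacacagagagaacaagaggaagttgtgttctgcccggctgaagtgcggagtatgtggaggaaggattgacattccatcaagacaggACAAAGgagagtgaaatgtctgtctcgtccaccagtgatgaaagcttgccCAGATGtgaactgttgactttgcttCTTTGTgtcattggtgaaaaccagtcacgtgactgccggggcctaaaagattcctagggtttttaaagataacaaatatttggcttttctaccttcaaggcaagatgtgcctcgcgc
Rfx3 -317502: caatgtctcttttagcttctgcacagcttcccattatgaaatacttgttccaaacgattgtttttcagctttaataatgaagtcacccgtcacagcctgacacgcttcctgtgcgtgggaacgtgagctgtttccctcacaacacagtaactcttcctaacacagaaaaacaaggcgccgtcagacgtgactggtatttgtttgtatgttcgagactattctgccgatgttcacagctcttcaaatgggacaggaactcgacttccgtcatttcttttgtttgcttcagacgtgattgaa
These motifs were chosen after values and sequences had been seen, and a match is a description of letters, not of binding. Rfx3 +106388 held 1 forkhead core, 3 SOX matches and 1 homeodomain match, and Rfx3 -154956 held 1 forkhead core, 1 SOX match and 1 CAGATG. Rfx3 -54247 held 2 SOX matches and 2 CAGATG, Foxj1 -23264 held 1 SOX match, and none of the letters searched was in the window of Rfx3 -317502. Over the central windows of all 111638 elements, TGTTTA was in 18.6%, ACAAAG in 31.1%, TAATTA in 7.85% and CAGATG in 25.7%. Of the 70 member windows, 13 held TGTTTA, 21 held ACAAAG, 9 held TAATTA and 19 held CAGATG. An RFX half-site (GTTGCC) was in 11 member windows and in 11.8% of all windows, the E-box CAGCTG in 8 and 21.1%, and the GLI letters GACCACCCA in 0 and 0.392%. All motifs were counted on both strands.

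Accessibility is given as normalised read counts, that is, reads in an element divided by the size factor of the sample. The total of reads in elements ran from 9298160 to 29985325 per sample, with a median of 20254011. Of the 70 member elements, 26 had a mean above 100 normalised counts over all samples, against 28.4% of all elements. Of these 26, 16 (61.5%) were lowest in NMPs, against 33.5% of the 31744 elements above the same mean. The range of their 25 condition means was 2.96 log2 units in the median, against 1.70 for those 31744. Without the limit on the mean the excess was absent, with 2.24 for all 70 members against 2.32 for all 111638 elements. The cell labels were checked with the summed counts of elements at marker genes. The Olig2 and Olig1 sum was highest in pMN at every day, with 15633 to 18500 at day 6 against 4037 to 6696 in p3. Of the p3 markers Nkx2-2 and Nkx2-9, the annotation gave elements to Nkx2-9 alone. Their sum was 2431 to 3403 in p3 and 2475 to 3482 in pMN at day 6, so it did not separate these types, while both lay above the 626 to 958 of p0-1.

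**Figure D1:**
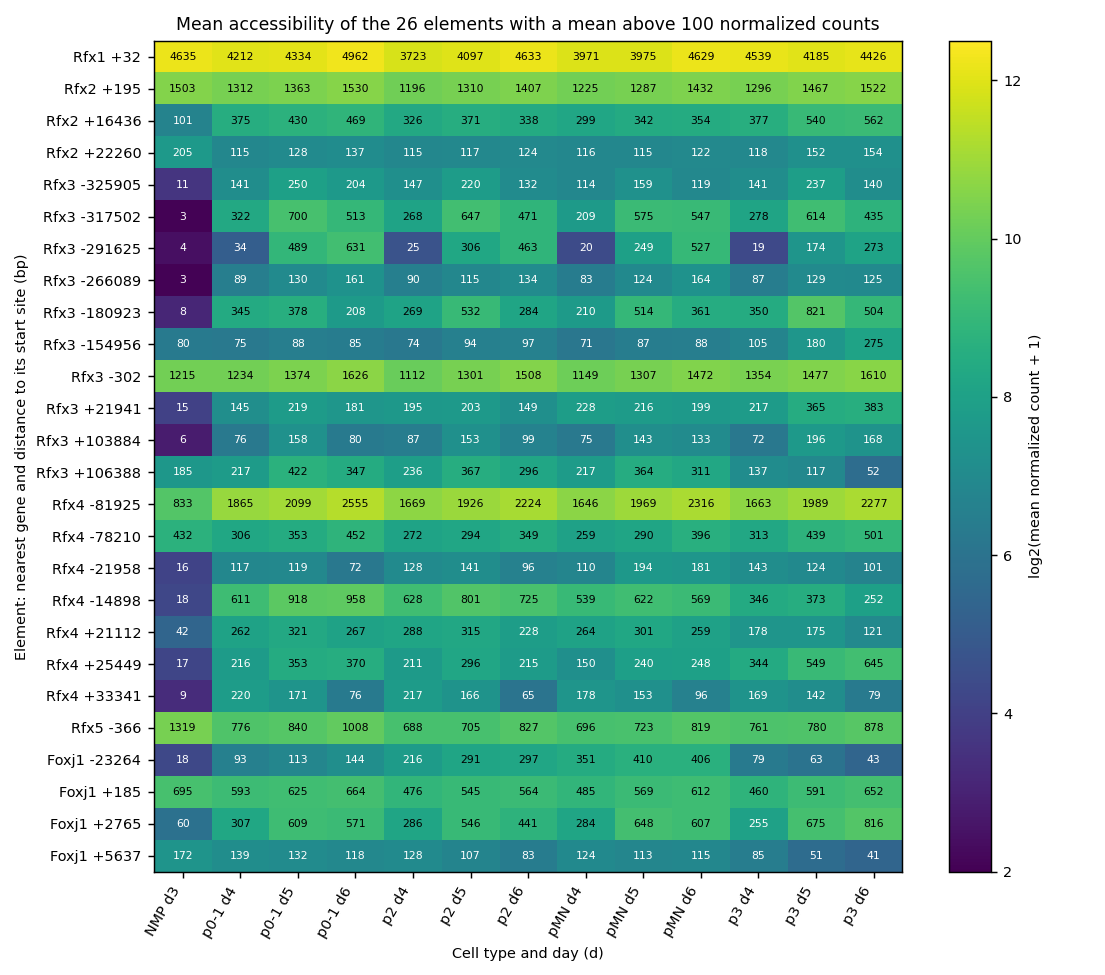
Mean normalised count of each of the 26 elements with a mean above 100, in rows, in each cell type and day, in columns; colour is log2 of the mean plus 1 and the printed number is the mean. Of the 26 rows, 16 have their lowest mean in the NMP column, and Foxj1 -23264 and Rfx3 +106388 are low in the p3 columns, with 42.5 and 52.3 at day 6.

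The start-site elements were open in every cell type. Elements that contained an annotated start site were Rfx1 +32, Rfx2 +195, Rfx3 -302, Rfx4 -81925, Rfx5 -366 and Foxj1 +185. In all 228 fits among NPs, the log2 ratio at these 6 elements did not exceed 0.37 in size, and 8 of the 228 passed an adjusted p of 0.01 (limma). Rfx1 +32 was the most open member element, with 4635 ± 866 (SD, n = 3) normalised counts in NMPs and 4426 ± 601 (n = 4) in p3 at day 6. Foxj1 +185 had 694.5 ± 123 counts in NMPs, 612 ± 54.5 in pMN at day 6 and 652 ± 39.6 in p3 at day 6. At day 4 it was lower than in NMPs, with log2 ratios of -0.59 to -0.23 over the 4 NP types, of which 3 had an adjusted p under 0.01 (limma). The medians of all tested elements in these comparisons, -0.51 to -0.39, lay within that range.

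From NMPs to day 4, a pair of start-site elements moved in opposite directions. Rfx4 -81925, at the first exon of the long Rfx4 transcripts, had 811, 824 and 864 normalised counts in the 3 NMP samples, and 1484 to 2677 with a median of 1762 in the 6 p0-1 samples of day 4. No NMP sample reached the lowest p0-1 sample, and the log2 ratio was 1.16 (adjusted p = 4.22e-05, limma). Rfx5 -366 fell from 1202, 1307 and 1449 in NMPs to 678 to 724, median 696, in pMN at day 4, a log2 ratio of -0.92 (adjusted p = 7.19e-08, limma). Over the 4 NP types of day 4 the log2 ratio of Rfx5 -366 lay between -0.94 and -0.76, all with an adjusted p under 0.01. Over all tested elements the median log2 ratio from NMPs to day 4 was itself -0.51 to -0.39, depending on the NP type, and Rfx5 -366 fell by more than that median.

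Distal elements of Rfx3, Rfx4 and Foxj1 opened between NMPs and day 4. An element was called when its adjusted p (limma, Benjamini-Hochberg over all elements above a mean of 100) was under 0.01 and the log2 ratio of mean counts exceeded 2 in size, that is, a 4-fold change. Of 23 member elements tested, 11 were called as increased in at least 1 NP type, against 20.0% of all 34557 tested elements, and 0 as decreased by limma (8.66%). The 11 were 5 elements of Rfx3, 4 of Rfx4 and 2 of Foxj1. With a 2-fold threshold, 15 of 23 changed (54.5% of all elements), of which 2 decreased (29.6%). Those 2 were Rfx2 +12568, from 157 in NMPs to 71.9 in p3, and Foxj1 +5637, from 172 to 85.5 in p3. Raw p under 0.05 held for 22 of 23 members and for 93.2% of all elements. The median over the 23 members of the log2 ratio, averaged over the NP types in which each was tested, was 1.75, and within single NP types the median was 0.70 to 1.34. An element was tested only in NP types where its mean passed the filter, so opened elements enter the average where they are high.

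Rfx3 -317502 changed most. Its counts were 4.8, 2.7 and 2.2 in the 3 NMP samples, and at day 4 they were 166 to 254 in pMN, 206 to 361 in p2, 173 to 529 in p0-1 and 248 to 329 in p3. All day 4 samples were at least as high as 166, so the groups were far apart. The log2 ratios were 5.63 in pMN, 5.99 in p2, 6.04 in p3 and 6.26 in p0-1, each with an adjusted p of 1.75e-08 or less (limma), but NMP counts this low make the size of the ratio imprecise. Rfx3 -180923, an intergenic element, rose from 8.5, 9.4 and 5.4 in NMPs to 248, 409.5, 396, 338 and 358 in the 5 p3 samples of day 4 (log2 ratio 5.32, adjusted p = 7.82e-12, limma). Rfx3 +21941, in the first intron, rose from 15.1 ± 9.99 (n = 3) to 228 ± 37.8 (n = 6) in pMN. Rfx3 -54247 rose from 8.62 ± 2.81 to 189 ± 58.2 (n = 5) in p3, and Rfx3 -325905 from a mean of 11.3 to 147 in p2. The Rfx3 start site meanwhile had 1215 ± 48.1 counts in NMPs and 1149 ± 102 in pMN.

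At Rfx4, the element Rfx4 -14898, in intron 4, had 15.8, 17.5 and 20.5 counts in NMPs and 454 to 773, median 623, in the 6 p2 samples of day 4. The log2 ratio was 5.05 (VST difference 4.42 ± 0.158 SE, adjusted p = 4.62e-12, limma). In p3 the same element reached 256, 271, 484, 319.9 and 398 (adjusted p = 1.03e-10, limma). Rfx4 +33341 rose from 9.02 ± 3.14 to 219.5 ± 53.4 in p0-1, Rfx4 +25449 from 17.2 ± 8.17 to 344 ± 36.7 in p3, and Rfx4 +21112 from 41.5 ± 12.7 to 288 ± 52.8 in p2. All 4 lie inside the gene.

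At Foxj1, Foxj1 +2765, in the second intron, rose from 75.2, 48.6 and 54.9 in NMPs to 250.2 to 398 in p0-1 and 262, 256, 273.5, 199 and 283 in p3 (log2 ratios 2.35 and 2.08, adjusted p = 1.49e-07 and 2.77e-08, limma). Foxj1 -23264 rose from 20.6, 17.5 and 17.2 in NMPs to 331 to 375 in pMN, a log2 ratio of 4.18 (adjusted p = 7.62e-13, limma), and to 133 to 267.5 in p2, a log2 ratio of 3.48. In p0-1 it reached 66.6 to 125, and in p3 76.7, 43.6, 94.7, 92.1 and 85.5. Rfx2 +16436, in the first intron of Rfx2, rose from 101 ± 5.01 to 377 ± 41.4 in p3, a log2 ratio of 1.89, and so passed the 2-fold but not the 4-fold threshold.

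**Figure D2:**
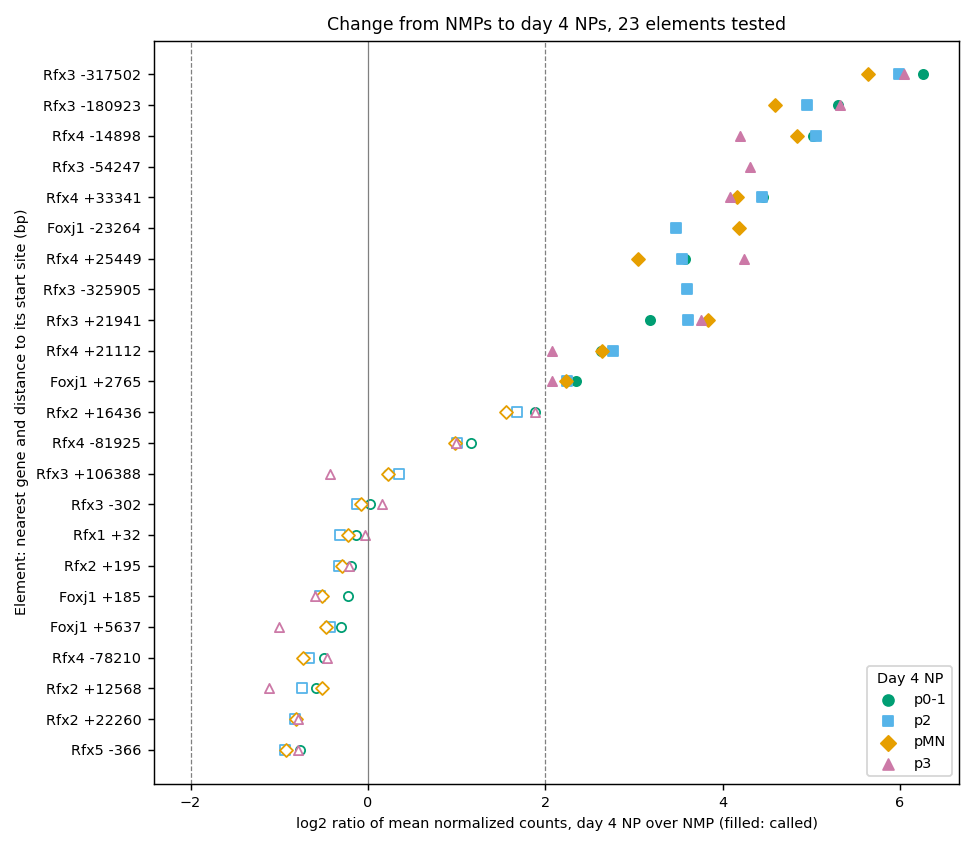
Log2 ratio of mean normalised counts, day 4 NP over NMP, for the 23 elements tested, with 1 mark for each NP type and filled marks for called changes. The called elements, of Rfx3, Rfx4 and Foxj1, lie to the right, with Rfx3 -317502 at 5.63 to 6.26, and the start-site elements lie closer to 0, from -0.94 at Rfx5 -366 to 1.16 at Rfx4 -81925.

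Without the filter on the mean, all 70 elements entered the fit, 33 of them increased (28.3% of all 111638 elements) and 3 decreased (11.8%). Of the 33, 22 were elements of Rfx3, 7 of Rfx4, and 2 each of Rfx7 and Foxj1. Rfx3 -241148 rose from 1.62 ± 0.713 in NMPs to 148 ± 46.3 in p0-1 and Rfx3 -266089 from 3.23 to 90.4 in p2. Both Rfx7 elements, in its first intron, rose from NMPs: Rfx7 +5134 from 11.1 ± 8.64 to 50.9 ± 5.84 in pMN and Rfx7 +23134 from 3.14 ± 1.02 to 32.1 ± 21.9 in p0-1. The 3 that fell were Rfx5 +5929, from 92.1, 119 and 106 to 9.66 to 25.6 in pMN, Rfx3 -120024, from 68.5 ± 21.7 to 4.56 ± 2.44 in p0-1, and Foxj1 -19312, from 29.0 to 5.08 in pMN. Adjusted p was under 0.01 (limma) for each of these.

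**Figure D3:**
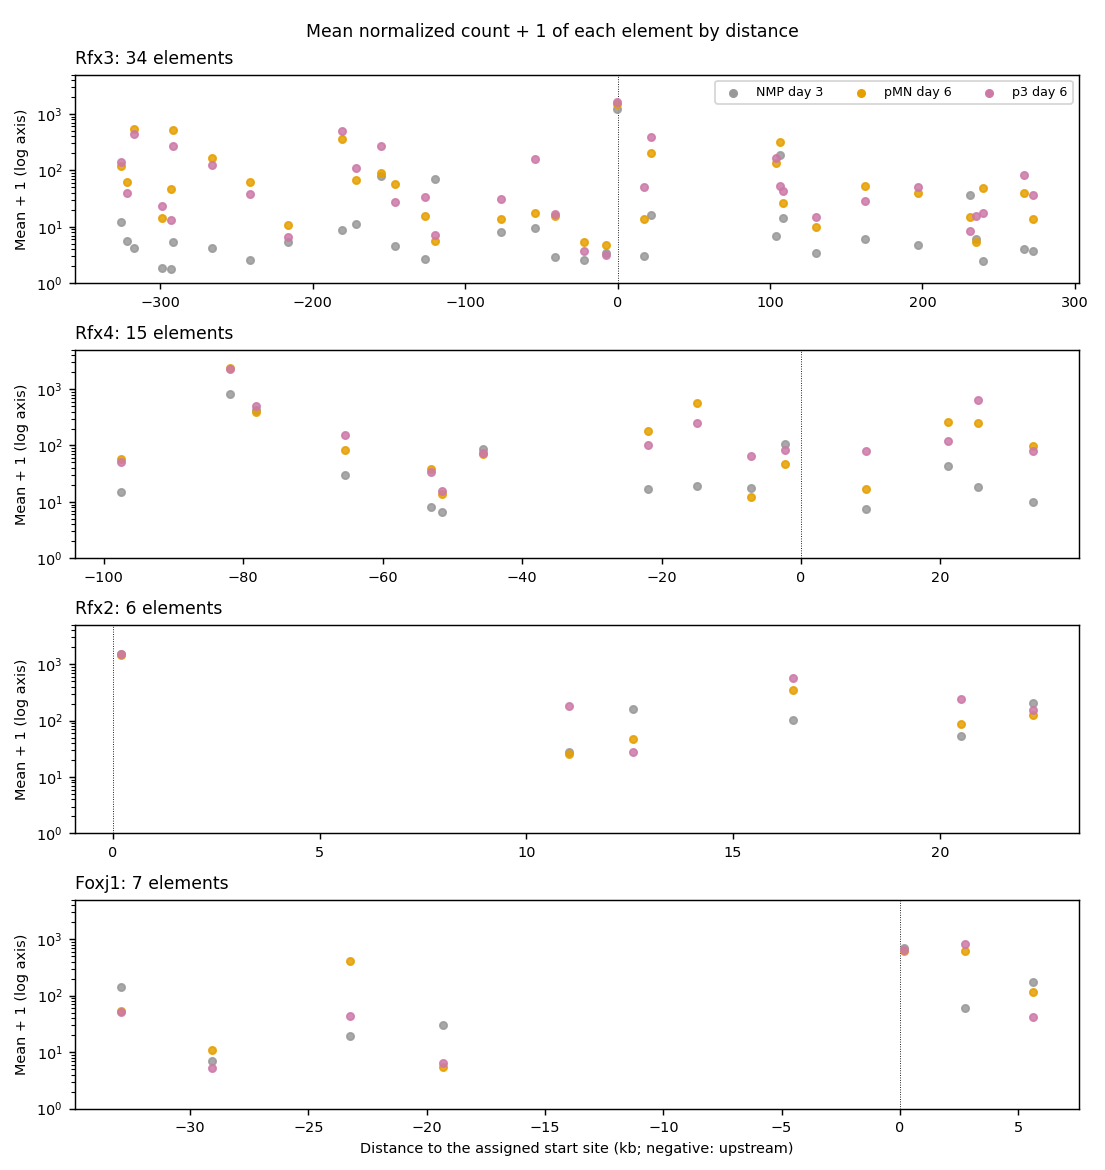
Mean normalised count plus 1, on a log axis, of each element of Rfx3, Rfx4, Rfx2 and Foxj1 against distance to the assigned start site in kb, in NMPs at day 3 and in pMN and p3 at day 6. At Rfx3 the summed distal counts were 508 ± 34.4 in NMPs, 3093 ± 515 in pMN and 3194 ± 320 in p3, so that the grey NMP points lie below the others at most distal elements.

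Between days 4 and 5, 1 member element changed 4-fold. Rfx3 -291625, in intron 7 of Glis3, was nearly closed at day 4 and opened in all NP types at day 5. In pMN it went from 16.7 to 24.1 (median 20.2, n = 6) at day 4 to 299, 232, 340.1, 150.1 and 223 at day 5, and the groups did not overlap. The log2 ratio was 3.55 in pMN (adjusted p = 1.29e-09), 3.56 in p2 (1.28e-08) and 3.81 in p0-1 (1.24e-07, limma). In p3 the counts were 10.1 to 24.98 with a median of 18.2 (n = 5) at day 4 and 226, 159, 207.5, 139 and 140.4 at day 5, a log2 ratio of 3.15, with a mean too low for the filter. By day 6 it had 631 ± 215 (n = 5) in p0-1, 463 ± 138 (n = 6) in p2, 527 ± 208 (n = 4) in pMN and 273 ± 78.8 (n = 4) in p3. p3 was below p0-1 at day 5 (log2 ratio -1.48, adjusted p = 6.6e-05) and at day 6 (-1.20, adjusted p = 0.00465, limma). The day 6 difference was lost without replicate 2 or replicate 3, with adjusted p of 0.0117 and 0.0862 (limma).

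The call rate of 1 of 30 tested members compared with 7.11% of 36999 elements, and with a 2-fold threshold 7 of 30 members changed, against 25.3%. The 7 included Rfx3 -317502, which rose further in pMN from 209 ± 33.7 to 575 ± 40.4 (log2 ratio 1.45, adjusted p = 1.78e-08, limma), and Foxj1 +2765, which rose in p3 from 255 ± 32.6 to 675 ± 33.7 (1.40, adjusted p = 2.55e-07, limma). Rfx3 -180923 rose in p3 from 350.0 ± 63.6 to 821 ± 63.1, and Rfx2 +20521 and Rfx3 +103884 rose too. Rfx3 -241148 was the 1 member of the 7 that fell. Between days 5 and 6, 0 of 30 members were called by limma (0.624% of 41500 elements) and 0 of 30 at 2-fold (8.35%). With the replicate block 2 of 30 passed at 2-fold (10.6%). That block takes a replicate number to pair samples of different days, which was not checked. Rfx4 +33341 fell in p0-1 (log2 ratio -1.16, adjusted p = 0.000142 with the block and 0.0197 without it, limma) and in p2 (-1.33, adjusted p = 0.000366 and 0.011), and Rfx3 -291625 rose in pMN (1.08, adjusted p = 0.000242 and 0.0187). Without the block, raw p was under 0.05 in at least 1 fit for 20 of the 30, and limma with voom weights on the recovered reads also called 0. In single fits raw p was under 0.05 for 10 to 14 members, and for 11734 of 32208 to 13905 of 31401 of all elements.

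Compared with the other NP types, p3 differed in both directions. At day 4, 2 of 24 members were called against at least 1 other NP type (2.35% of 31090 elements) and 3 at 2-fold (11.4%). At day 5, 1 of 27 was called (10.1% of 34326) and 9 at 2-fold (27.0%). At day 6, 3 of 27 were called (16.9% of 36431), 1 higher in p3 (6.99%) and 2 lower (9.93%), and 11 at 2-fold (34.9%), 6 of them higher in p3 (14.1%) and 5 lower (20.9%). The day 4 count is small, and the counts of days 5 and 6 lay near the shares of all elements or below them, so that no difference between the members and all elements is drawn from them. The summed count at genes of the floor plate rose in p3. Foxa2, which is among them, does not mark the floor plate alone, since the paper reports its expression in p3 cells. The paper also saw little expression of floor plate markers under these conditions at day 6. The summed count of 100 elements at Foxa1, Foxa2, Shh, Ntn1 and Spon1 was 14463 to 19543 in p3 at day 4, 20794 to 28558 at day 5 and 27255 to 37845 at day 6, against 15640 to 18549 in pMN, 13686 to 19560 in p2 and 15681 to 17209 in p0-1 at day 6. The elements at neuronal genes (Tubb3, Elavl3, Elavl4, Stmn2 and Dcx) summed to 5712 to 7897 in p3, 11011 to 11206 in pMN, 6845 to 10663 in p2 and 4617 to 7270 in p0-1 at day 6. Their part in the differences below was not tested. In bulk samples, fewer cells with an open element and a less open element in each cell cannot be told apart.

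Foxj1 -23264 was lower in p3 than in p2 and pMN at every day. At day 6 its counts were 472, 357, 389 and 405 in the 4 pMN samples and 42.9, 50.9, 40.4 and 35.9 in the 4 p3 samples, so that every pMN sample was above every p3 sample. The log2 ratio of p3 to pMN was -2.15 at day 4, -2.68 at day 5 and -3.22 at day 6 (adjusted p = 1.54e-07, 2.07e-08 and 3.19e-06, limma). Against p2 it was -1.45, -2.19 and -2.78 at days 4, 5 and 6 (adjusted p = 0.000143, 6.45e-08 and 7.65e-06, limma), and the day 4 ratio had an adjusted p of 0.0101 without replicate 1. p3 at day 6 (42.5 ± 6.26) still lay above NMPs (18.5 ± 1.87). With doses pooled, the means of p0-1, p2 and pMN were 93.2, 216 and 351 at day 4 and 144, 297 and 406 at day 6. This order was also that of rising SAG dose. At day 6 the samples of neighbouring types overlapped, with 68.3 to 223 in p0-1, 164 to 445 in p2 and 357 to 472 in pMN. At the dose shared by p0-1 and p2, given below, their counts overlapped at day 6 but not at day 5. Since p0-1 and pMN shared no SAG dose, type and dose cannot be told apart between them. The fits between types pooled doses, so they do not separate type from dose between p2 and p0-1 or pMN either. The log2 ratio of pMN to p0-1 was 1.90, 1.85 and 1.49 at days 4, 5 and 6 (adjusted p = 2.91e-06, 3.25e-05 and 0.00329, limma), and that of p2 to p0-1 at day 5 was 1.36 (adjusted p = 0.00112). The day 6 ratio of pMN to p0-1 lost its call without replicate 2 or without replicate 3, with adjusted p of 0.0897 and 0.0301 (limma), and the day 5 ratio of p2 to p0-1 without replicate 1 or replicate 2 (0.0285 and 0.038).

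The other Foxj1 elements differed from each other in p3. Foxj1 +2765 had 590.3, 1044, 587 and 1043 counts in p3 at day 6, with the higher pair both from replicate 3, and 607 ± 295 (n = 4) in pMN. Foxj1 +5637, at the end of the gene, was low in p3 as Foxj1 -23264 was, with means of 85.5, 51.1 and 41.5 at days 4, 5 and 6 against 124, 113 and 115 in pMN. At day 6 the p3 samples were at 34.6 to 50.9 and the pMN samples at 83.2 to 135.5, without overlap. The day 4 log2 ratio of p3 to pMN was -0.53 (adjusted p = 0.115, limma), and at days 5 and 6 its mean was under 100, so that it was not tested with the filter. Without the filter the log2 ratio was -1.13 at day 5 (adjusted p = 5.26e-05, limma) and -1.44 at day 6 (adjusted p = 0.000199, limma). Foxj1 -29083 was nearly closed, with 4.2 counts in p3 and 9.9 in pMN at day 6.

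Rfx3 +106388 fell in p3 from day 4 to day 6, while in pMN it was higher at day 6 than at day 4. It was already open in NMPs, and no main fit between successive days called it at 2-fold. Its counts in p3 were 121, 138, 149.9, 124 and 154 at day 4, 87.9, 118, 137, 105 and 137 at day 5, and 57.7, 51.9, 53.1 and 46.6 at day 6. In pMN they went from 195 to 255 (median 206, n = 6) at day 4 to 364 ± 12.8 (n = 5) at day 5 and 311 ± 32.3 (n = 4) at day 6, and in NMPs they were 185 ± 12.8 (n = 3). At day 6 the p3 samples lay below all NMP samples and below all p0-1, p2 and pMN samples, with log2 ratios of -2.71 to p0-1, -2.48 to p2 and -2.55 to pMN (adjusted p = 1.63e-07, 1.51e-07 and 3.96e-06, limma). At day 5 the ratio to pMN was -1.63 (adjusted p = 1.41e-07, limma).

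Rfx3 -154956 rose in p3 instead. In p3 it had 88.8, 114, 94.7, 127 and 99.0 counts at day 4, 196, 166, 181, 172 and 188 at day 5, and 251, 291, 244 and 315 at day 6. The other NP types and NMPs stayed at means of 71.2 to 97.3 at all times. The 4 pMN samples of day 6 were at 87.3 to 90.2, below every p3 sample. The log2 ratio at day 6 was 1.69 to p0-1, 1.49 to p2 and 1.63 to pMN (adjusted p = 5.37e-06, 2.11e-05 and 1.37e-05, limma).

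Rfx3 -54247 was high in p3 already at day 4, with 111, 146, 223.5, 217 and 249.6 counts against 37.8 to 71.6 in pMN. The log2 ratio was 2.18 to p0-1, 2.09 to p2 and 1.81 to pMN (adjusted p = 7.07e-05, 8.71e-06 and 1.81e-05, limma). The 4-fold call was lost when the threshold was set on the VST scale, and without replicate 3 the mean was too low to be tested. In p3 the mean was 189 ± 58.2 at day 4, 137 ± 64.3 at day 5 and 158 ± 106 at day 6, and the day 6 samples were 82.4, 175, 73.9 and 302, again higher in replicate 3. In p0-1 it was 21.2 to 55.3 at day 4 and 3.97 to 22.4 at day 6.

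Intronic elements of Rfx1 and Rfx2 moved both ways. Rfx1 +6836, Rfx2 +11042, Rfx2 +16436 and Rfx2 +20521 were highest in p3 at day 6, while Rfx2 +12568 and Rfx2 +22260 were highest in NMPs. Rfx2 +12568 was lowest in p3 at day 6, with a mean of 26.4 against 45.7 in pMN. Rfx2 +11042 had 94.0, 239, 115 and 286 counts in p3 and 9.86, 32.9, 15.0 and 39.7 in pMN, a log2 ratio of 2.86 (adjusted p = 0.000869, limma). It was no longer called with voom weights (adjusted p = 0.0121), and without replicate 3 its mean was too low to be tested. Rfx2 +20521 had 193, 287, 208 and 286 in p3 against 67.7 ± 14.3 (n = 6) in p2, a log2 ratio of 1.83 (adjusted p = 1.25e-05, limma). Rfx1 +6836, in the first intron of Rfx1, had 153, 116, 92.4 and 110 in p3 and 28.7, 29.1, 29.1 and 26.9 in pMN. It was below the filter on the mean, and without that filter its log2 ratio was 2.01 (adjusted p = 1.41e-05, limma). At Rfx3, Rfx3 +21941 had 383 ± 53.2 in p3 and 149 ± 41.5 in p2 at day 6 (log2 ratio 1.35, adjusted p = 8.79e-05, limma).

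Elements of Rfx4 moved both ways. Rfx4 -14898 had 244, 310.3, 208 and 245 counts in p3 at day 6, below 502 to 611 in pMN, 609 to 826 in p2 and 798 to 1112 in p0-1, with log2 ratios of -1.17, -1.52 and -1.92 (adjusted p = 6.45e-05, 1.18e-06 and 8.89e-07, limma). Rfx4 +21112 was 121 ± 30.4 in p3 and 267 ± 64.6 in p0-1, a log2 ratio of -1.13 (adjusted p = 0.00284, limma) that was lost without replicate 3 (adjusted p = 0.052). Rfx4 +25449 was higher in p3 than in pMN at day 4, with 344 ± 36.7 and 149.8 ± 25.9 counts (log2 ratio 1.19, adjusted p = 5.55e-06, limma). With all 67 samples in 1 fit that difference had an adjusted p of 0.0723.

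**Figure D4:**
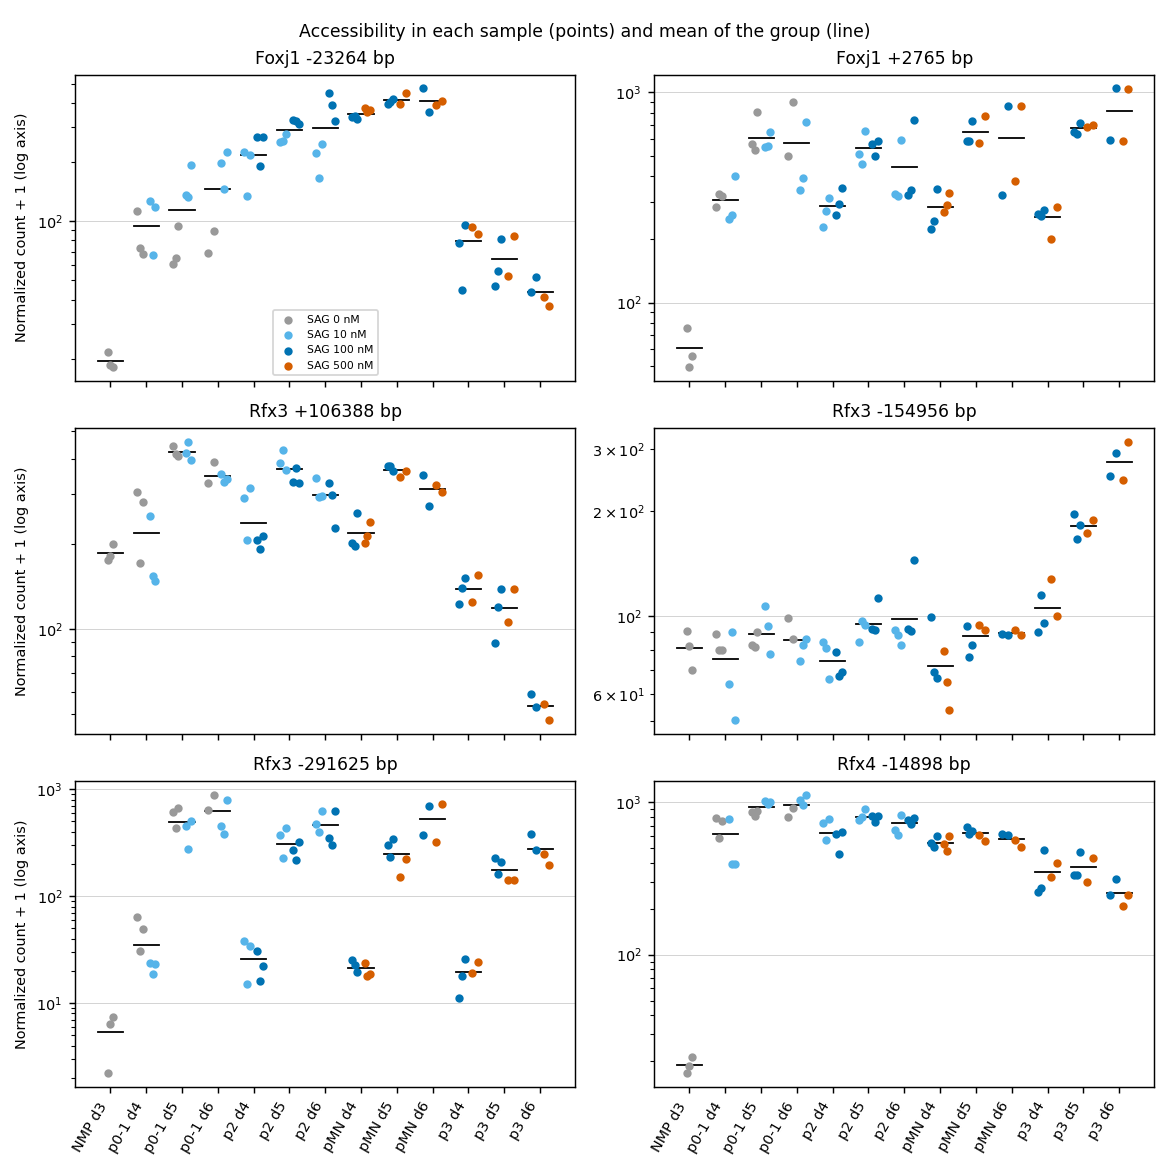
Normalised count plus 1, on log axes, in every sample, by cell type and day, for Foxj1 -23264, Foxj1 +2765, Rfx3 +106388, Rfx3 -154956, Rfx3 -291625 and Rfx4 -14898, with colour for SAG dose and a bar for the group mean. In Foxj1 -23264 and Rfx3 +106388 the p3 points of day 6 lie at 35.9 to 57.7, below every p0-1, p2 and pMN sample, and in Rfx3 -154956 they lie at 244 to 315, above every other sample of day 6.

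Without the filter on the mean, 6 of 70 members were higher in p3 at day 6 (10.1% of all 111638 elements) and 4 were lower (11.5%). Those higher were Rfx1 +6836, Rfx2 +11042, Rfx3 -126537, Rfx3 -54247, Rfx4 -7168 and Rfx4 +9302, and those lower were Foxj1 -23264, Rfx3 +106388, Rfx3 -22184 and Rfx3 -293253. Rfx3 -54247 was at 158 in p3 and 10.7 in p0-1, a log2 ratio of 3.77 (adjusted p = 5.23e-05, limma). Rfx4 -7168 was at 64.4 in p3 and 11.1 in pMN, and Rfx4 +9302 at 79.1 in p3 and 15.4 in p2.

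The change from day 4 to day 6 was compared between p3 and pMN with an interaction term. At the 4-fold threshold 0 of 26 members were called by limma (2.35% of 31716 elements), with a raw p under 0.05 for 9 of them (14 with the replicate block) and 0 calls by voom. In the main fit raw p was under 0.05 for 9311 of the 31716 elements. At 2-fold, 4 of 26 were called (10.6%). The log2 difference, p3 minus pMN, was -1.90 at Rfx3 +106388 (adjusted p = 9.38e-07, limma), -1.08 at Foxj1 -23264 (adjusted p = 0.00455) and -1.20 at Rfx4 -21958, an intronic element (adjusted p = 0.00446). At Rfx3 -154956 it was 1.08 (adjusted p = 0.00112, limma). The calls of Foxj1 -23264 and Rfx4 -21958 were lost without replicate 1 (adjusted p = 0.0318 and 0.0178), and those of Foxj1 -23264 and Rfx3 -154956 without replicate 3 (0.0866 and 0.0495).

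Among p0-1, p2 and pMN, 0 of 27 members were called at the 4-fold threshold by limma (3.61% of 40673 elements), and 0 by voom. Raw p was under 0.05 in at least 1 fit for 21 of the 27. In single fits it was under 0.05 for 3 to 11 members, and for 3196 of 29657 to 15867 of 31863 of all elements. At 2-fold 1 of 27 was called (16.5%), and this was Foxj1 -23264. With the replicate block 2 of 27 were called at 2-fold (17.7%). The other was Rfx4 -21958, higher in pMN than in p0-1 at day 6 (log2 ratio 1.33, adjusted p = 0.0043 with the replicate block and 0.0164 without it, limma).

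SAG dose was compared within each cell type and day, with a 2-fold threshold. By limma, 0 of 34 members were called (0.00203% of 49264 elements, that is, 1 element), and 0 by voom. Raw p was under 0.05 in at least 1 fit for 10 of the 34. In single fits it was under 0.05 for 0 to 5 members, and for 153 of 31179 to 5715 of 31156 of all elements. Replicate numbers paired samples at days 5 and 6, and with the replicate block 2 of 34 members were called, against 5.85% of all elements. Both were in p0-1. At day 5 Foxj1 -23264 had 59.9, 63.9 and 94.1 counts at 0 nM and 136, 131 and 192 at 10 nM, higher in 3 of 3 pairs and without overlap. The log2 ratio was 1.06, with an adjusted p of 0.0749 without the block and 0.000136 with it (limma). At day 6 it had 68.3 and 88.2 at 0 nM and 196, 144 and 223 at 10 nM (log2 ratio 1.25, adjusted p = 0.0793 without the replicate block and 3.07e-09 with it). That blocked fit had 1 residual degree of freedom.

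In p2 the same element had 252, 255 and 278 counts at 10 nM and 325.5, 321 and 312 at 100 nM at day 5 (log2 ratio 0.29, adjusted p = 0.394, limma), and 220.1, 164 and 245 against 445, 389 and 321 at day 6 (log2 ratio 0.87, adjusted p = 0.359, and 0.085 with the replicate block). The groups did not overlap at either day, but neither difference passed the threshold. At 1 dose, 100 nM at day 5, Foxj1 -23264 had 312 to 325.5 counts in p2 and 45.7, 54.7 and 80.0 in p3. No p2 sample overlapped with a p3 sample at this dose. The other element called with the block was Rfx4 +25449, which had 246 and 968.5 counts at 0 nM and 85.4, 122 and 428 at 10 nM in p0-1 at day 6 (log2 ratio -1.51, adjusted p = 0.388 without the replicate block and 3.32e-14 with it, limma). The counts of the doses overlapped. This blocked fit too had 1 residual degree of freedom, with 2 replicate numbers present at both doses, so its p rests on few samples.

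Within conditions, a few member elements followed the replicate number. Rfx4 +25449 was higher in replicate 3 than in replicate 2 in 8 of 8 conditions at day 5 and in 8 of 8 at day 6, by 2.32-fold and 3.92-fold in the median. Over all day 6 samples it was 334 to 1096 in replicate 3, 54.7 to 279.5 in replicate 2 and 70.1 to 85.4 in replicate 1, so that replicate 3 did not overlap with the others. Rfx4 +33341 was 2.98-fold higher in replicate 3 at day 6 in the median, in 8 of 8 conditions, and Rfx2 +11042 2.53-fold higher, also in 8 of 8. At Foxj1 +2765 the median fold was 1.84 at day 6 and 1.14 at day 4. Of the 26 members above a mean of 100, 0, 1 and 2 had a median over 2-fold at days 4, 5 and 6, against 0.992%, 0.504% and 3.01% of the 31744 elements. Within replicates 2 and 3 of day 6, Rfx4 +25449 was higher in p3 than in pMN. The main fit at day 6 did not call it at the 2-fold threshold between p3 and any other NP type. In replicate 3 of day 6 the p3 samples were at 952 and 1096 and the pMN samples at 402 and 445. In replicate 2 they were at 252 and 279.5 in p3 and at 54.7 and 90.2 in pMN.

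**Figure D5:**
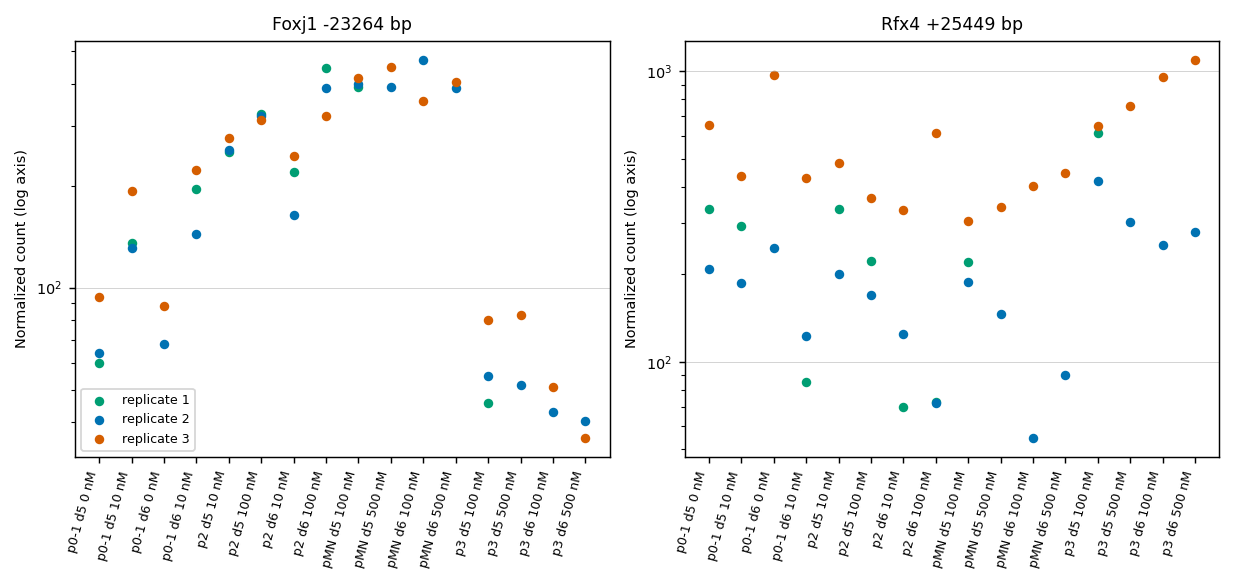
Normalised count of Foxj1 -23264 (left) and Rfx4 +25449 (right) in each condition of days 5 and 6, on log axes and coloured by replicate number. At Rfx4 +25449 replicate 3 lies above replicate 2 in all 16 conditions, while at Foxj1 -23264 the conditions differ by cell type, with 357 to 472 counts in pMN and 35.9 to 83.1 in p3.

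Other genes of the ciliary programme were counted by the same rule, for which the shares of all tested elements were 20.0% up and 8.66% down from NMPs to day 4, and 6.99% up and 9.93% down for p3 at day 6. Among the regulators of multiciliated cells, 3 of 19 tested elements rose and 3 fell from NMPs to day 4, and 0 rose and 3 fell in p3 at day 6 of 16 tested. Examples named here were picked by the largest log2 ratios among the called elements of a list. The element Myb +78121 rose from 13.2 to 717 counts in pMN (log2 ratio 5.66). The element Gmnc +23618 fell from 209 to 39.8 in p3 (-2.37), and Gmnc is a geminin relative that starts multiciliated cell fate. Of the elements at axonemal genes, 11 of 39 rose and 0 fell from NMPs to day 4, and in p3 at day 6 4 rose and 3 fell of 35. Hydin encodes a protein of the central pair of the axoneme, and the element Hydin +116054 rose from 16.7 to 560.2 in p2. Tekt2 encodes a tektin of the axoneme, and the element Tekt2 -17916 was at 494 in p3 and 12.3 in p0-1 at day 6. Of the elements at intraflagellar transport and primary cilium genes, 5 of 34 rose and 2 fell from NMPs to day 4, and 3 rose and 4 fell in p3 of 38. Ift57 encodes an intraflagellar transport subunit, and the element Ift57 -290750 was at 996 in p0-1 and 54.98 in p3 at day 6. Bbs9 encodes a BBSome subunit, and the element Bbs9 +345160 was at 4.28 and 253. At such distances the nearest gene need not be the target, and p0-1 and p3 shared no SAG dose. Of the remaining RFX genes and the partners of RFX5, 0 of 4 tested elements were called from NMPs to day 4 (limma), with 1 rise and 2 falls at 2-fold. The medians of the mean log2 ratio from NMPs to day 4 were -0.86, -0.52, -0.44 and -0.98 for these 4 lists, against 1.75 for the members and -0.41 for all 34557 tested elements by the same measure. Elements enter this measure only through the NP types where their mean passed the filter, so it is a description alone. Within single NP types the median was 0.70 to 1.34 for the members and -0.51 to -0.39 for all tested elements.

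The elements most like Rfx3 -154956 over the 25 condition means were an intronic element of Tpcn1 (r = 0.971), an intronic element of Sphkap (0.970) and the element Shh -96519 (0.962). For Rfx3 -317502 they were intergenic or intronic elements assigned to Ins1 (0.986), Dbx2 (0.984) and Mical2 (0.982). These are correlations of condition means on the log2 scale among 31744 elements. The 25 means share libraries and scaling across elements, and a high r is a description of likeness alone.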

How the data were processed

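CaTS-ATAC libraries were made from 67 sorted samples, and replicates of a condition were independent differentiations. Except in the comparisons of SAG dose, samples of a cell type and day were pooled over doses. A pooled group can hold samples with the same replicate number at different doses. The main fits and SDs treated these as independent, although samples with the same number correlated, as given below. The authors ran the nf-core atacseq pipeline on mm10, called peaks with MACS, merged them into consensus elements, annotated each with its nearest gene, and deposited 1 table of variance-stabilised values from DESeq2, on a log2 scale, for 111638 elements. The values were inverted to normalised counts. Whole reads were recovered within a tolerance of 0.01 for 100% of the values checked, which left out those with the most reads. Depth was 9298160 to 29985325 reads per sample, and the spread between samples limits the precision.

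Differences were tested on the deposited log2 values with limma 3.58.1 (R 4.3.3, moderated statistics with a mean trend), on the samples compared and on elements with a mean above 100 normalised counts there. P-values were adjusted by Benjamini-Hochberg over all elements tested. A call needed an adjusted p under 0.01 and a log2 ratio of mean counts (pseudocount 1) over 2 in size, or over 1 for SAG dose. A 2-fold threshold is given beside it. In a set of comparisons, an element counts as called if it was called in at least 1. Sums, figures and sequences were made with Python 3.11.15, and sequences were read from GRCm38.p6.

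Groups came from the sample titles and characteristics. Replicate numbers in the titles and the descriptions differed for 15 samples, and those of the titles were used. Deviations of samples with the same number from their group means correlated, with a median r of 0.618, 0.569 and 0.565 at days 4, 5 and 6. All pairs were over 0.1 at days 5 and 6 (71 of 71 and 59 of 59), and 69 of 77 at day 4, so the numbers were taken to pair samples at days 5 and 6, and a fit with a replicate block was made beside each main fit. Each pair was of samples of the same day, so pairing between days was not checked. Tests were checked on simulated data.

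Elements were named by rule, for each gene the one nearest the start site, the one with the largest range and the one most above the other types in day 6 p3 cells, and up to 3 of the largest called increases and decreases of each comparison. Further elements were named after their values were seen. The members, gene lists and motifs were chosen with earlier results of these data known. For the floor plate list, 1 gene is not reported here and was left out of the sum.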

Additional observations from a re-analysis of the deposited data

Results flagged for a closer look

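Of 240 groups of 4 to 10 samples examined, 13 held a sample that stood apart by Dixon's 95% criterion, where chance flags about 1 in 20. Most were replicate 3. Rfx2 +195 had 1882 normalised counts and Rfx3 -302 had 1769 in replicate 3 of p0-1 at day 4 and 10 nM SAG, against 1007 to 1319 and 976 to 1217 in the other samples of their groups. Replicate 3 of p2 at day 6 and 100 nM was high at Rfx3 -154956 (144, others 81.6 to 90.7), Rfx3 -180923 (540.4, others 171 to 295) and Rfx3 -54247 (67.6, others 5.71 to 27.1). Replicate 3 was also high at Rfx3 -54247 in p2 at day 5 and 100 nM (72.1, others 14.5 to 32.4), Rfx2 +16436 in p2 at day 5 and 10 nM (439, others 328 to 368) and Rfx2 +11042 in p0-1 at day 6 and 0 nM (63.4, others 15.1 to 28.1). Rfx7 +23134 was high in replicate 3 of p0-1 at day 4 and 0 nM (73.2, others 12.7 to 33.4) and at day 5 and 10 nM (13.6, others 4.12 to 7.12). Replicate 2 was high at Rfx2 +11042 at day 5 and 100 nM in p3 (243, others 141 to 148) and in pMN (112, others 18.1 to 31.4). Replicate 1 was low at Rfx4 -2310 in p2 at day 5 and 10 nM (17.2, others 40.2 to 45.2).

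The change from day 4 to day 6 differed between p3 and pMN, by the interaction term in limma, at 5 elements. The log2 differences were -1.90 at Rfx3 +106388 (adjusted p = 9.38e-07), -1.20 at Rfx4 -21958 (adjusted p = 0.00446), -1.08 at Foxj1 -23264 (adjusted p = 0.00455), 1.08 at Rfx3 -154956 (adjusted p = 0.00112) and -0.73 at Rfx3 -317502 (adjusted p = 0.00939).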

How the results depend on the processing

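No result reversed. Counts of members called moved as follows. Without the filter on the mean, 36 members were called from NMPs to day 4, 7 from day 4 to day 5, 4, 4 and 10 between p3 and the other types at days 4, 5 and 6, and 1 among p0-1, p2 and pMN. With the other fold threshold the counts were 7 from day 4 to day 5, 9 and 11 for p3 at days 5 and 6, 1 among the other types and 4 for the interaction. Restricted to elements within 100 kb, 0 were called from day 4 to day 5. With the threshold on the VST scale, 1 was called for p3 at day 4. Leaving out 1 replicate number at a time gave 10 to 12 members from NMPs to day 4, 1 to 2 for p3 at day 4, 1 to 3 at day 5, 3 to 5 at day 6, 0 to 1 among the other types and 0 to 2 for SAG. Without replicate 3, Rfx3 -54247 was lost at day 4, Rfx2 +11042 and Rfx3 +106388 were added at day 5, and Rfx2 +11042 gave way to Rfx4 -14898 at day 6. Without replicate 2, Rfx2 +20521 and Rfx3 -54247 were added at day 6. Foxj1 -23264 was called among the other types without replicate 1 or 3. For SAG, Rfx3 +21941 was called without replicate 1, and Foxj1 -23264 and Rfx4 +25449 without replicate 3. With the replicate block the SAG count was 2, also with the numbers of the descriptions, and with all samples in one fit it was 1. At 2-fold the block gave 2 members from day 5 to day 6 and 2 among p0-1, p2 and pMN, and raw p under 0.05 held for 14 members in the interaction and 23 for SAG. No share of all elements is set beside these raw p counts, so nothing is drawn from them. The block moved no other count of members by over 1.5 times. The cause of these changes was not tested. With median centring, the fall of Foxj1 +5637 from NMPs to p3 had an adjusted p of 0.0229 and the interaction of Foxj1 -23264 one of 0.015 (limma). SAG fits of pMN and p3 at day 6 were not run without replicate 2 or 3, which left 1 sample for each dose. Groups of 2 to 6 samples and elements under 100 counts limit what small changes could be seen.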
